A study of Mus musculus with 8 samples.

Results

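The RAS-ERK and PI3K-AKT cascades were followed in mouse germ cells through 44 genes, of which 37 are core members (adaptors, GTPases, kinases and their direct substrates) and 7 are feedback genes, *Spry1*, *Spry2*, *Spry4*, *Spred1*, *Spred2*, *Dusp4* and *Dusp6*. Members were taken by gene name and by no measured value. All 44 were found among 55357 genes, and all 44 passed the expression filter, which kept the 20187 genes with at least 1 TPM (transcripts-per-million units, a level corrected for gene length) in at least 1 library. RNA-seq covered enriched germ cells of 8 C57BL/6 males at 15 days after birth, 1 library per mouse. The 4 controls were *Mgat2*[F/F], with floxed alleles of the glycosyltransferase gene *Mgat2* and no Cre recombinase. The 4 conditional knockout (cKO) mice were *Mgat2*[F/F]:*Stra8*-iCre, in which the same floxed alleles meet a Cre that is first made in spermatogonia, so that somatic cells of the testis keep the gene. The comparison asks whether transcripts of the 2 cascades, or of the genes that respond to ERK, differed between the genotypes.

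Growth factor receptors recruit the adaptors SHC1 and GRB2 and the exchange factors SOS1 and SOS2, which load RAS proteins with GTP. GTP-bound RAS starts the RAF, MEK and ERK kinase tiers and also PI3K, whose lipid product activates AKT and, through TSC and RHEB, mTOR. Active ERK induces transcription of its own inhibitors, the Sprouty and SPRED proteins and the phosphatases DUSP4 and DUSP6, so transcripts of these genes are widely read as a record of ERK signalling, whereas the kinases themselves are controlled mostly by phosphorylation, which RNA does not measure. In the testis, KIT and GDNF signal through both cascades in spermatogonia.

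*Mgat2* transcripts were at 69.8, 31.8, 64.3 and 59.8 CPM (counts-per-million units, scaled with edgeR's TMM factors) in controls 1 to 4 and at 35.3, 20.1, 37.6 and 16.0 CPM in cKO 1 to 4. Most cKO libraries were lower, but the groups overlapped, because control 2 lay below cKO 1 and cKO 3. The log2 fold change (cKO over control) was -1.05 (SE 0.36, adjusted p = 0.47 by edgeR's quasi-likelihood test, adjusted p = 0.025 by DESeq2). Reads of *Mgat2* cannot be separated from 304 bp that its exons share with *Rpl36al* on the other strand, since the libraries were not stranded. Libraries held 12584726 to 15907505 counts. A signal of 3 counts, taken as a floor that covers counting error only, was worth 0.189 to 0.238 CPM. Libraries were not of germ cells alone. The Sertoli cell marker *Clu* stood at 3568 to 4298 CPM, the 10 Sertoli markers summed to 5298 to 6202 CPM in controls and 5529 to 6479 CPM in cKO, and the 7 peritubular markers to 756 to 946 and 711 to 1218 CPM. The 6 Leydig markers summed to at most 62.6 CPM, and of 7 round spermatid markers 3 did not pass the filter. In such bulk samples fewer cells of a type and less RNA per cell cannot be told apart. The libraries numbered 1 stood apart in both genotypes, and for some members, not always those touched most, values are given with and without them. Without both libraries numbered 1, edgeR called 855 of all genes tested, against 8 with all libraries.

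No member differed between genotypes at an adjusted p under 0.05 by edgeR, a threshold that 8 genes, or 0.0396% of all genes tested, passed. At an unadjusted p under 0.05, 5 members were higher in cKO (*Shc1*, *Rras2*, *Rap1a*, *Rps6ka3* and *Spred1*), against 2.62% of all genes. The 2 members lower at that level were *Mapk15* and *Rin1*, against 6.28% of all genes. DESeq2 called no member higher, against 0.0892% of all genes, and called *Mapk15* and *Rin1* lower, against 1.41% of all genes. The 4 control and 4 cKO libraries did not overlap for 4 higher members (*Shc1*, *Rras2*, *Rps6ka3* and *Spred1*; 2.47% of all genes) and for the same pair of lower members (3.03% of all genes). The median log2 fold change was 0.04 over the 37 core members, 0.16 over the 7 feedback genes and 0.01 over all genes. The feedback median depended on which of the libraries numbered 1 entered. Without control 1 it was -0.06, with 3 of the 7 genes above 0, and without cKO 1 it was 0.18, with all 7 above 0. Without both it was 0.14, with 6 of the 7 above 0. Markers of some cell types had medians of the same size or larger. These were 0.18 over 9 markers of undifferentiated spermatogonia (8 above 0), 0.17 over 8 of differentiating spermatogonia (7 above 0) and 0.19 over 7 peritubular markers (7 above 0). The median was 0.08 over 10 Sertoli markers. It was below 0 over early meiotic (-0.04), Leydig (-0.04), endothelial and macrophage (-0.11), round spermatid (-0.27) and pachytene markers (-1.28). By mean log2(CPM + 1), the undifferentiated list was 0.11 and the differentiating list 0.13 higher in cKO. Without both libraries numbered 1 these differences were 0.04 and 0.06. The part of these cell types in the feedback median was not tested.

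**Figure D1:**
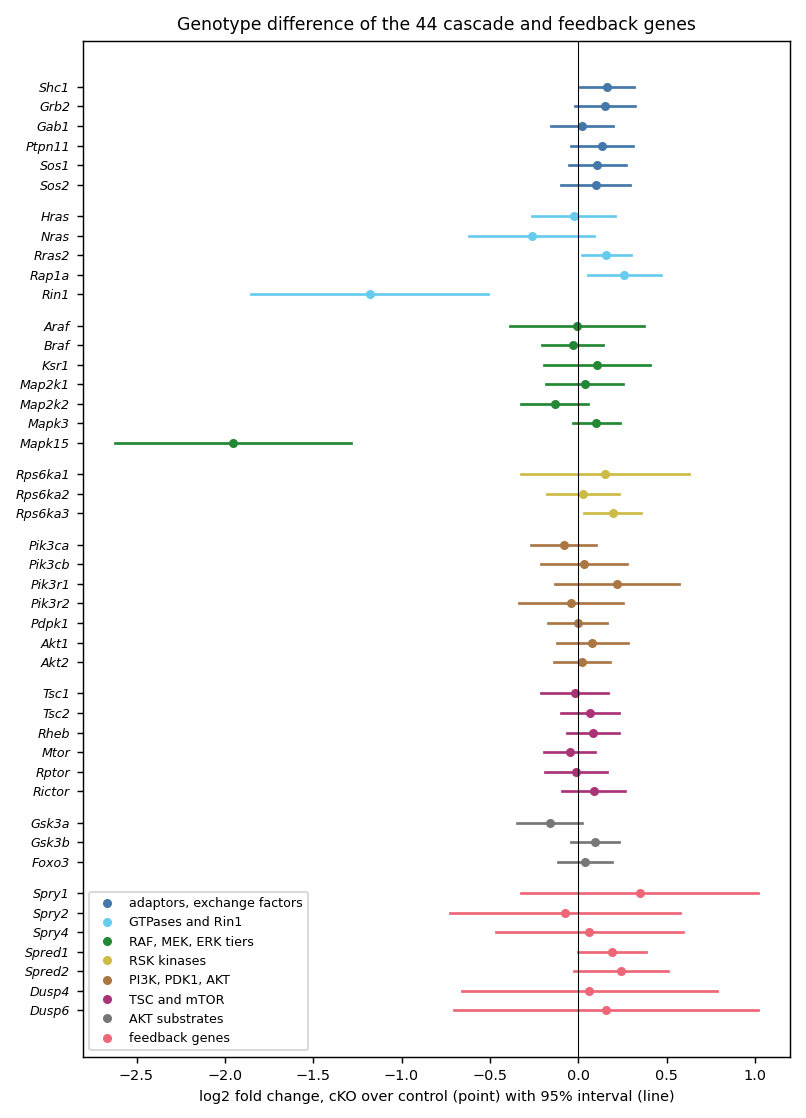
Log2 fold change, cKO over control, of the 44 members by role, with the edgeR estimate as a point and its 95% interval as a line. *Mapk15* and *Rin1* lie left of 0, most other core members lie near 0 with narrow lines, and 5 of the 7 feedback genes have wide lines.

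Among the adaptors and exchange factors, *Shc1*, which couples receptors to GRB2, was at 70.6, 69.7, 69.4 and 75.1 CPM in controls and at 80.4, 80.2, 82.6 and 75.9 CPM in cKO. Every cKO library was above every control, by less than 1 CPM between the nearest pair, and the log2 fold change was 0.16 (SE 0.07, adjusted p = 0.53 by edgeR). All 6 genes of this role had a fold change above 0, from 0.02 for *Gab1*, a docking protein, to that of *Shc1*. Neither *Grb2* (68.1 ± 5.23 CPM in controls against 75.6 ± 2.73 in cKO, SD, n = 4), nor the phosphatase gene *Ptpn11* (136 ± 14.6 against 149 ± 3.64), nor *Sos1* (108 ± 6.35 against 116 ± 7.29) or *Sos2* (89.5 ± 10.2 against 95.9 ± 5.29) had an unadjusted p under 0.05.

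Of the small GTPases, *Rras2*, a RAS relative, was at 140, 145, 148 and 155 CPM in controls and at 163, 162, 174 and 158 CPM in cKO, again without overlap. Its log2 fold change was 0.16 (SE 0.06, adjusted p = 0.51 by edgeR). *Rap1a*, whose product can activate BRAF, was at 43.3, 51.5, 55.9 and 50.5 CPM in controls and 61.7, 63.8, 60.03 and 55.7 CPM in cKO. Its groups touched, with control 3 just above cKO 4, and the log2 fold change was 0.26 (SE 0.09, adjusted p = 0.45 by edgeR). *Hras* differed little, with a log2 fold change of -0.03 and a 95% interval from -0.26 to 0.21. *Nras* had the widest spread of the RAS genes. It was at 131 CPM in control 1 and 83.4 to 102 CPM in the other controls, and at 101 CPM in cKO 1 and 72.6 to 80.9 CPM in the other cKO libraries, so that library 1 was highest in each genotype (log2 fold change -0.26, SE 0.16, adjusted p = 0.65 by edgeR). With a term for library 1 in the fit the adjusted p was 0.022, at -0.26, and without both libraries numbered 1 it was 0.15, at -0.21.

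*Rin1*, which encodes a RAS effector that acts on RAB5 and competes with RAF for RAS, was at 4.21, 2.85, 4.49 and 2.50 CPM in controls and at 0.996, 1.75, 1.74 and 1.70 CPM in cKO. All cKO libraries were below all controls, and cKO 1 was the lowest, with a log2 fold change of -1.18 (SE 0.31, 95% interval -1.85 to -0.51). The adjusted p was 0.32 by edgeR and 0.042 by DESeq2. Without both libraries numbered 1 it was -0.93 (adjusted p = 0.13 by edgeR). *Rin1* was the second-lowest member by level, at 2.09 ± 0.73 TPM (SD, n = 4) in controls, and its cKO values rest on 15 to 27 counts per library.

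The kinase tiers from RAF to ERK lay close together in the genotypes, apart from *Mapk15*. *Mapk3* (ERK1) was at 150, 148, 143 and 157 CPM in controls and 165, 161, 160 and 155 CPM in cKO, with 1 crossing pair, control 4 above cKO 4, and a log2 fold change of 0.10 (95% interval -0.03 to 0.24). *Map2k2* (MEK2) had -0.13 (95% interval -0.32 to 0.06) and *Map2k1* (MEK1) 0.04 (95% interval -0.18 to 0.26), the latter on exons of which 31.4% overlap *Snapc5* on the other strand. *Braf* (70.6 ± 4.76 against 69.1 ± 3.64 CPM) and the scaffold gene *Ksr1* (19.2 ± 2.28 against 20.6 ± 2.81 CPM) did not differ beyond their spread. *Araf* was low in both libraries numbered 1, at 44 CPM in control 1 and 39 CPM in cKO 1 against 56.1 to 65.2 CPM in the other 6, and its log2 fold change was -0.01 with and 0.03 without these libraries.

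*Mapk15* encodes ERK8, an atypical ERK that phosphorylates itself rather than waiting for MEK and is known for roles in autophagy and in building cilia. It lies on the plus strand at chr15:75865602-75871003 (GRCm39), and its exons overlap no other annotated gene. It was at 22.9, 14.5, 19.7 and 10.5 CPM in controls and at 6.24, 2.52, 3.98 and 4.68 CPM in cKO. The lowest control was above the highest cKO library. Expression was 3.87-fold lower in cKO, a log2 fold change of -1.95 (SE 0.30, 95% interval -2.62 to -1.29). The adjusted p was 0.064 by edgeR and 4.4e-07 by DESeq2, and without both libraries numbered 1 edgeR gave -2.01 with an adjusted p of 2.2e-05. With all libraries, the edgeR adjusted p was 0.037 with upper-quartile normalization, 0.045 with library totals and 0.024 without a filter. It was 4.6e-06 with a term for library 1. The call by edgeR therefore rests on normalization, filter and model as well as on which libraries enter. The direction was the same in each leave-one-out fit, from -2.18 to -1.76.

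Markers of pachytene spermatocytes moved with *Mapk15*. The gene was the only member higher in library 1 than in the mean of the other 3 by at least 0.5 on the log2(CPM + 1) scale in both genotypes (0.63 in controls, 0.64 in cKO), which 5.22% of all genes were. Of 9 pachytene spermatocyte markers, 8 were likewise higher in both libraries numbered 1. The same 9 markers summed to 909 to 3132 CPM in controls and 466 to 1054 CPM in cKO, 8 of 9 had a fold change below 0, and their median log2 fold change was -1.28. The part of these markers in the *Mapk15* difference was not tested.

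**Figure D2:**
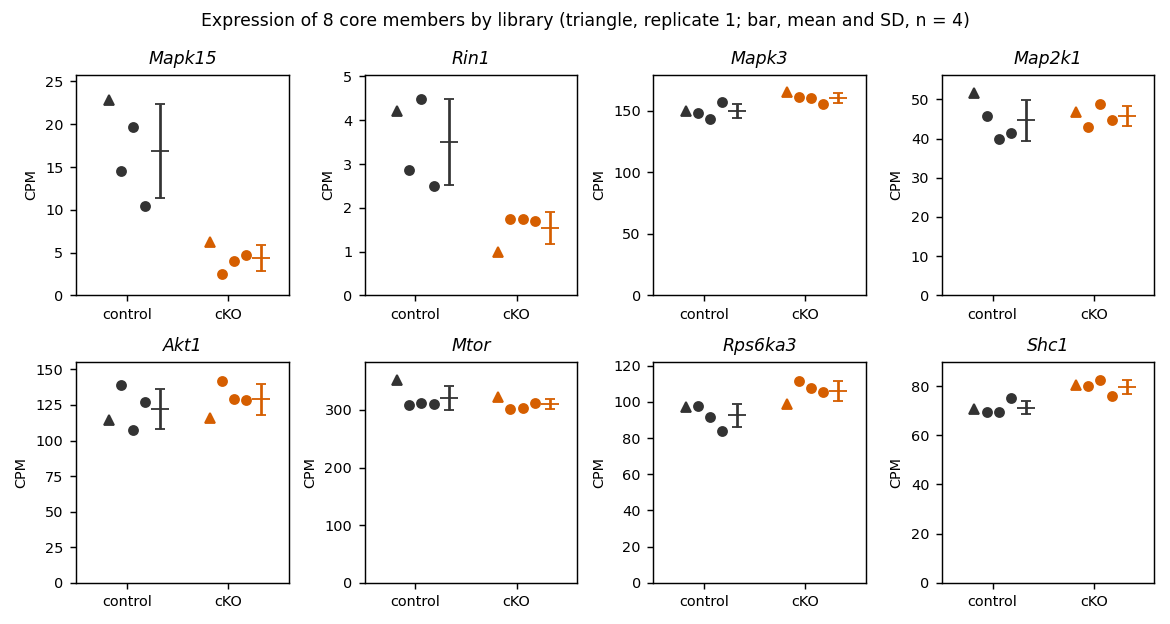
CPM of 8 core members in each library of control and cKO mice, with library 1 of each genotype as a triangle and the mean and SD (n = 4) as a bar. *Mapk15* spans 10.5 to 22.9 CPM in controls and 2.52 to 6.24 CPM in cKO, while *Mapk3*, *Map2k1*, *Akt1* and *Mtor* overlap.

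Among the RSK kinases, which ERK activates, *Rps6ka3* (RSK2) was at 97.4, 97.6, 91.4 and 83.8 CPM in controls and 98.7, 112, 108 and 105.4 CPM in cKO. The groups were apart, narrowly in cKO 1. The log2 fold change was 0.19 (SE 0.07, adjusted p = 0.48 by edgeR). Library 1 lay close to the mean of the other libraries, by 0.10 in controls and -0.13 in cKO on log2(CPM + 1). Without both libraries numbered 1, a fit that called 855 of all genes against 8, the adjusted p was 0.028 by edgeR. *Rps6ka2* (264 ± 25.3 against 269 ± 29.6 CPM) and *Rps6ka1* (32.4 ± 6.07 against 36.0 ± 11.5 CPM, highest in library 1 of each genotype) overlapped between genotypes. The log2 fold change of *Rps6ka1* was 0.15 with and 0.04 without both libraries numbered 1.

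No gene of the PI3K-AKT branch reached an unadjusted p of 0.05. *Akt1* was at 114, 139, 107 and 127 CPM in controls and 116, 142, 129 and 129 CPM in cKO, with overlapping groups. Its log2 fold change was 0.08 (95% interval -0.12 to 0.28), although 42.7% of its exon bases overlap *Siva1* on the other strand. *Akt2* had 0.02 (95% interval -0.14 to 0.18), *Pdpk1* (PDK1, which phosphorylates AKT) 0.00 (-0.17 to 0.16), and the catalytic subunit genes *Pik3ca* and *Pik3cb* -0.08 (-0.26 to 0.10) and 0.03 (-0.21 to 0.28). The regulatory subunit genes were less precise, with 0.22 (-0.13 to 0.57) for *Pik3r1* and -0.04 (-0.33 to 0.25) for *Pik3r2*. The 6 TSC and mTOR genes ranged from -0.05 for *Mtor* (95% interval -0.20 to 0.10) to 0.09 for *Rictor* (95% interval -0.09 to 0.27). *Tsc1*, *Tsc2*, *Rheb* and *Rptor* lay between them. Of the AKT substrates, *Gsk3a* had -0.16 (-0.35 to 0.02, with 29.6% of its exon bases shared with a transcript on the other strand), *Gsk3b* 0.09 (-0.04 to 0.23) and *Foxo3* 0.04 (-0.12 to 0.19).

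The core genes were estimated closely. With *Mapk15* and *Rin1* set aside, a choice made after their values were seen, 35 core members ranged in log2 fold change from -0.26 (*Nras*) to 0.26 (*Rap1a*). The 95% interval of 32 of the 35 lay within 0.5 of 0 on the log2 scale, and that of all 35 lay within 1. Over all genes tested, 41.1% had an interval within 0.5. By level per length, *Map2k2* (163 ± 16.0 TPM) and *Mapk3* (161 ± 11.6 TPM) led the 44 members in controls and overlapped each other, and *Akt2* (117 ± 10.3 TPM), *Rras2* (114 ± 7.31 TPM) and *Gsk3a* (101 ± 10.1 TPM) followed, overlapping in turn. Of the feedback genes, *Dusp6* ranked the highest, 12th at 54.2 ± 20.8 TPM, and the others were in the lowest 10, down to *Spry4* at 2.57 ± 0.80 TPM and *Dusp4* at 1.6 ± 0.63 TPM.

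The upstream sequences of the feedback genes were set side by side, since the levels of these genes, unlike those of the kinases, are read as transcriptional output of ERK. RefSeq promoters (GRCm38.p6) were given for 38 of the 44 members and 5 of the 7 feedback genes, and the 250 bases before the start were searched on both strands for the CRE half-site TGACG, the ETS motif CCGGAAG, the AP-1 motif TGANTCA, the RFX half-site GTTGCC and the CArG box, none of which contains another. Of 32851 promoters, 17.8%, 6.91%, 6.75%, 10.4% and 1.47% held them, in that order. Over the 50 windows of the 38 members, some of which have several windows, the shares were 32%, 10%, 6%, 8% and 0%. Of the feedback genes, *Spred2* held the CRE half-site, *Dusp6* and *Spry2* held the RFX half-site, and no ETS, AP-1 or CArG match was found in any of the 5 windows. The windows with a match are shown 5′ to 3′ on the strand of the gene, with the match in capitals, for *Dusp6* (chr10:99262981-99263230, plus strand), *Spry2* (chr14:105896820-105897069, minus strand) and *Spred2* (chr11:19924192-19924441, plus strand). A match is a description of the letters and not a site.
Dusp6: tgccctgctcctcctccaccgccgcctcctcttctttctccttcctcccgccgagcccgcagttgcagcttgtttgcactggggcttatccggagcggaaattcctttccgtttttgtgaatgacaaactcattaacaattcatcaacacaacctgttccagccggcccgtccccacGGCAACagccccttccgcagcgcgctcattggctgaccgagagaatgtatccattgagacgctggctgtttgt
Spry2: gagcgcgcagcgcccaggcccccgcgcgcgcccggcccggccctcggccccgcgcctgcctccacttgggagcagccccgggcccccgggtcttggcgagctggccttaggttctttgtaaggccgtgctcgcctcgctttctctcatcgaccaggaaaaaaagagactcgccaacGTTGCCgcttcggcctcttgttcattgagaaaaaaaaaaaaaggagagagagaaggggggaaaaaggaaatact
Spred2: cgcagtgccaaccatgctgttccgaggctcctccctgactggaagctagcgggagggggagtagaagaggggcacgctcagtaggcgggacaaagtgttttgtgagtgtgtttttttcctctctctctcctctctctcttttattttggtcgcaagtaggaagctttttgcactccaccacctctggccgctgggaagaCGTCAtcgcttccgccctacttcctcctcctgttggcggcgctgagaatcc

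Of the feedback genes, *Spred1*, an inhibitor of RAF activation, was at 44.7, 42.7, 40.8 and 41.6 CPM in controls and at 52.2, 51.2, 45.4 and 45.1 CPM in cKO. All cKO libraries were above all controls, by less than 1 CPM between cKO 4 and control 1. The log2 fold change was 0.19 (SE 0.09, adjusted p = 0.56 by edgeR). Its relative *Spred2* was at 21.0, 21.4, 19.1 and 23.2 CPM in controls and 28.7, 26.6, 22.3 and 22.5 CPM in cKO. Here control 4 lay above cKO 3 and cKO 4, and the log2 fold change was 0.24 (SE 0.12, adjusted p = 0.59 by edgeR).

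*Dusp6*, which encodes a cytoplasmic phosphatase specific to ERK, was at 39.4, 86.9, 82.3 and 102 CPM in controls and at 47.1, 103, 102 and 94.7 CPM in cKO. The groups overlapped, and in each genotype library 1 was at about the same low level, below every other library. The log2 fold change was 0.16 (SE 0.36, 95% interval -0.71 to 1.02, adjusted p = 0.94 by edgeR), and without both libraries numbered 1 it was 0.14 (SE 0.07, adjusted p = 0.41). An RNA on the other strand, *Gm56965*, shares 20.2% of the exon bases of *Dusp6*. The nuclear phosphatase gene *Dusp4* was at 1.29, 3.57, 2.40 and 2.73 CPM in controls and 2.59, 1.94, 2.51 and 3.4 CPM in cKO, low and overlapping (log2 fold change 0.06, SE 0.33, and -0.15, SE 0.32, without both libraries numbered 1).

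*Spry1*, which encodes a Sprouty inhibitor of receptor tyrosine kinase signalling, was at 13.8, 19.1, 25.2 and 22.1 CPM in controls and at 13.3, 35.7, 25.2 and 27.9 CPM in cKO. Library 1 was the lowest of each genotype, and cKO 2 was the highest of all. The log2 fold change of 0.35 (SE 0.29, 95% interval -0.32 to 1.02, adjusted p = 0.75 by edgeR) became 0.42 without both libraries numbered 1 (SE 0.13, adjusted p = 0.064). *Spry2* was at 5.36, 7.13, 8.09 and 7.34 CPM in controls and 2.85, 8.48, 6.98 and 8.23 CPM in cKO. *Spry4* was at 4.48, 9.34, 6.95 and 8.51 CPM in controls and 5.64, 7.77, 8.45 and 8.72 CPM in cKO. For both, library 1 was the lowest in each genotype and the other 3 libraries of the genotypes overlapped, with log2 fold changes of -0.07 (SE 0.30) and 0.06 (SE 0.24). Without both libraries numbered 1 these were 0.07 (SE 0.20), with the sign turned, and 0.01 (SE 0.19).

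**Figure D3:**
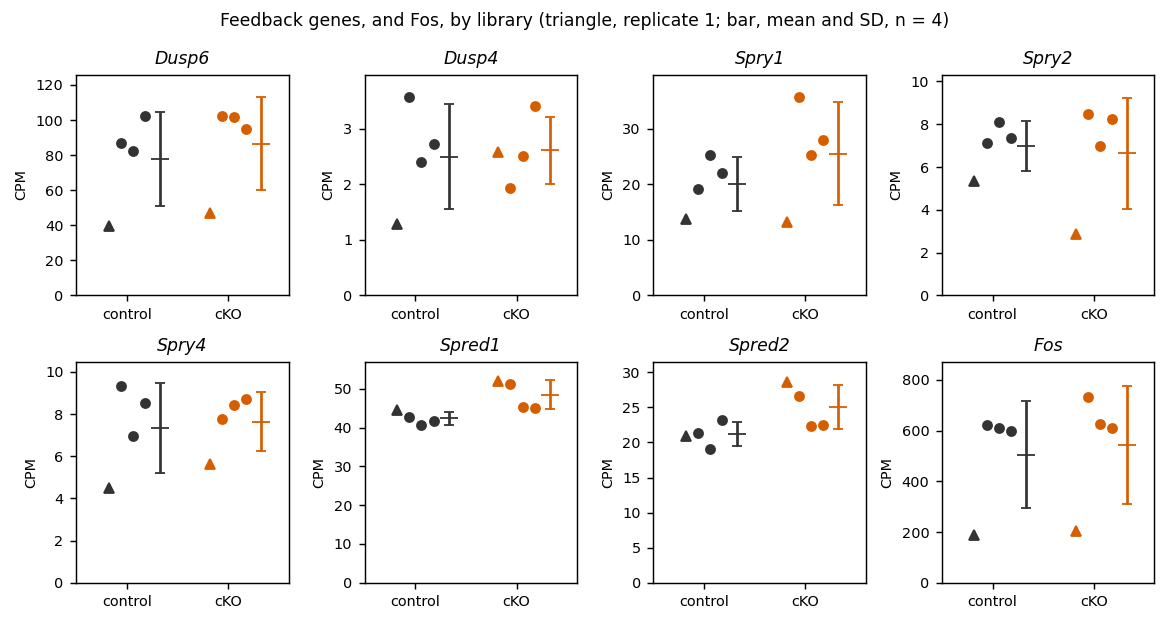
CPM of the 7 feedback genes and of the immediate-early gene *Fos* in each library, with library 1 of each genotype as a triangle and the mean and SD (n = 4) as a bar. In *Dusp6*, *Spry1*, *Spry2*, *Spry4* and *Fos* the triangles are the lowest points of both genotypes, and in *Spred1* and *Spred2* they are not.

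The 7 feedback genes gave a wider range of possible differences than the core members. The SE had a median of 0.29 over them, 0.08 over the 37 core members and 0.21 over all genes. The core members were thus narrower than most genes, and the feedback genes somewhat wider. The 95% interval of 1 of 7 lay within 0.5 of 0, against 41.1% of all genes, and that of 5 of 7 within 1. The spread had a pattern of its own. Relative to the mean of the other 3 libraries, library 1 was lower on the log2(CPM + 1) scale by at least 0.5 in both genotypes for *Dusp6* (-1.17 in controls and -1.06 in cKO) and *Spry1* (-0.64 and -1.09), and for no core member, while 4.25% of all genes met that rule. For *Spry2* the differences were -0.42 and -1.20, and for *Spry4* -0.75 and -0.49. For *Spred1* they were 0.10 and 0.14, and for *Spred2* -0.01 and 0.26.

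Immediate-early genes, which ERK and stress kinases induce within minutes, had the same low library. All 13 (among them *Fos*, *Egr1*, *Junb* and *Nr4a1*) were lower by at least 0.5 in library 1 of both genotypes, with a median of -1.53 in controls and -1.68 in cKO. *Fos* was at 188 CPM in control 1 and 600 to 624 CPM in the other controls, and at 204 CPM in cKO 1 and 611 to 735 CPM in the other cKO libraries. Summed, the 13 genes were at 1302 CPM in control 1 and 1292 CPM in cKO 1, against 3909 to 4905 CPM in the other 6 libraries. Between genotypes their median log2 fold change was 0.11, and none had an unadjusted p under 0.05 by edgeR. What set the libraries numbered 1 apart is not given by the labels, and its part in the feedback genes was not tested.

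The contrast of feedback genes with 17 core kinases was described per library as the difference of their mean log2(CPM + 1). It was -2.97, -2.32, -2.38 and -2.28 in controls and -2.67, -2.07, -2.21 and -2.14 in cKO. Library 1 had the lowest value in each genotype, and cKO 1 lay below controls 2 to 4. The mean was -2.49 ± 0.32 in controls and -2.27 ± 0.27 in cKO (SD, n = 4), a difference of 0.21 that is smaller than either SD. Without *Mapk15*, whose lower level enters the kinase mean, the difference was 0.11. Without both libraries numbered 1 the difference was 0.19, larger than the SDs of 0.05 in controls and 0.07 in cKO (n = 3), and the groups did not overlap. With *Mapk15* left out as well it was 0.08, against SDs of 0.02 and 0.06. The groups then overlapped, with cKO 3 (-2.468) just below control 4 (-2.467).

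**Figure D4:**
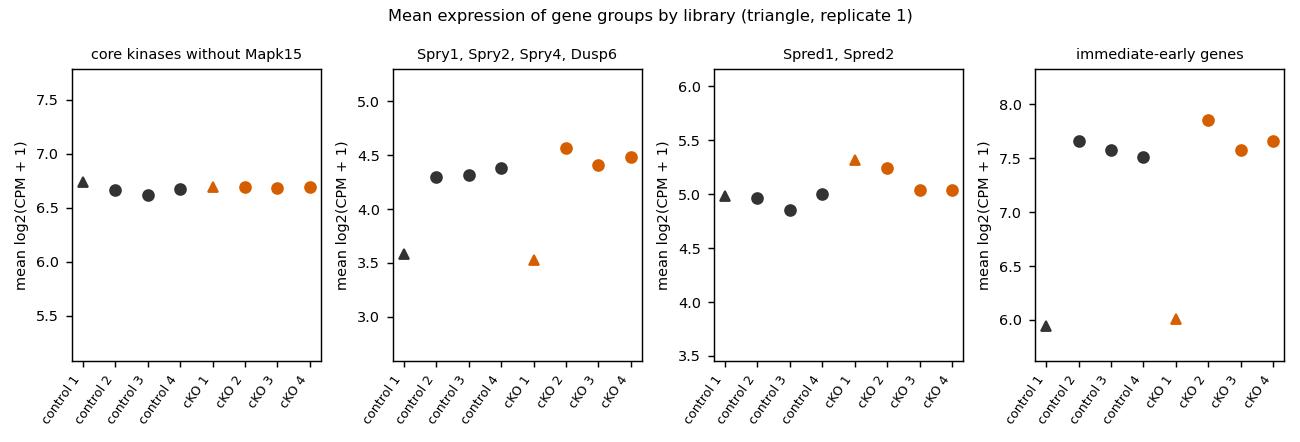
Mean log2(CPM + 1) of 4 gene groups in each library, on y axes of the same span, with library 1 of each genotype as a triangle. The 16 kinases without *Mapk15* are level over all libraries, the 4 Sprouty and *Dusp6* genes and the 13 immediate-early genes dip in both libraries numbered 1, and the SPRED genes do not.

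Other genes of the RAS-ERK cascade were counted from a list of 33, of which 29 passed the filter. Of these 22 had a fold change above 0 and 7 below, edgeR called none, 3 were higher at an unadjusted p under 0.05 (2.62% of all genes) and DESeq2 called 1 higher (0.0892% of all genes). Over all genes, 10364 were above 0 and 9817 below. The gene called was *Rps6ka5* (MSK1, a nuclear kinase downstream of ERK and p38), at 31.6 to 36.4 CPM in controls and 39.6 to 49.5 CPM in cKO, which did not overlap. Its log2 fold change was 0.39 (SE 0.10), with adjusted p = 0.30 by edgeR and 0.029 by DESeq2. *Rps6ka6* (RSK4) was at 44.5 to 53.3 CPM in controls and 51.7 to 72.7 CPM in cKO, with a log2 fold change of 0.35 (SE 0.11, adjusted p = 0.42 by edgeR).

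Of 29 further PI3K-AKT genes, 27 passed the filter, 19 were above 0 and 8 below, edgeR called none, 3 were higher at an unadjusted p under 0.05 and DESeq2 called 1 higher, against the same 2.62% and 0.0892% of all genes. The called gene was *Inpp5f*, a phosphoinositide phosphatase gene, at 47.5 to 49.8 CPM in controls and 58.2 to 63.6 CPM in cKO. The gap between the groups was wider than the range within either, and the log2 fold change was 0.30 (SE 0.08, adjusted p = 0.31 by edgeR and 0.016 by DESeq2). *Sgk3*, an AKT-related kinase gene, was at 86.7 to 91.7 CPM in controls and 98.1 to 106 CPM in cKO, also apart (log2 fold change 0.20, SE 0.06, adjusted p = 0.41 by edgeR).

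Readout genes gave few differences. Of 9 tested genes that respond to ERK in many cell types, 7 were above 0 and 2 below, and none was called by edgeR or DESeq2. *Etv5*, an ETS factor of spermatogonia, was at 36.3 to 43.9 CPM in controls and 43.97 to 54.8 CPM in cKO. Its groups were apart by a narrow margin, as 2.47% of all genes were in the higher direction (log2 fold change 0.24, SE 0.10, adjusted p = 0.53 by edgeR). Of 11 FOXO-responsive genes, which rise where AKT is less active, 7 were above 0 and 4 below, and edgeR called none. DESeq2 called *Fbxo32*, a ubiquitin ligase gene, higher, against 0.0892% of all genes. It was at 22.2 to 29.2 CPM in controls and 31.7 to 43.6 CPM in cKO (log2 fold change 0.48, SE 0.12, adjusted p = 0.31 by edgeR and 0.042 by DESeq2). *Sesn3*, another gene of that list, had the opposite sign, -0.25 (SE 0.10, adjusted p = 0.52 by edgeR), with overlapping groups. The median log2 fold change was 0.11 over the ERK-responsive and 0.04 over the FOXO-responsive genes. *Etv5* is also among the markers of undifferentiated spermatogonia, whose median was 0.18, and the part of those cells in these values was not tested.

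**Figure D5:**
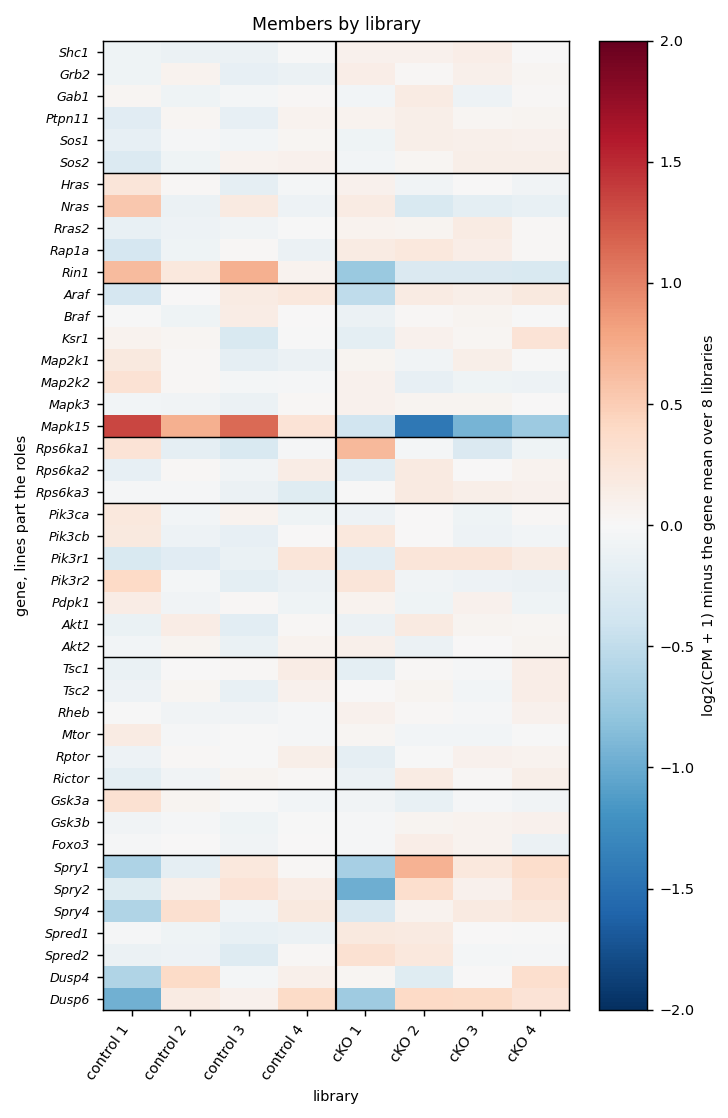
Log2(CPM + 1) of each of the 44 members in each library, as the difference from the gene's mean over the 8 libraries. *Mapk15* and *Rin1* are above their means in every control and below in every cKO library, and the *Dusp6*, *Spry1*, *Spry2* and *Spry4* rows are lowest in both libraries numbered 1.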

How the data were processed

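RNA of germ cells from 8 mice was measured, 4 control and 4 cKO libraries, grouped by the sample titles. Per the labels and the methods, the authors made non-stranded libraries of polyadenylated RNA, aligned reads with STAR 2.7.9a to mm39 and estimated genes of Ensembl annotation 105 with RSEM 1.3.3. They deposited expected counts and TPM values for 55357 genes.

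Expected counts were rounded (6.37% were not whole). Genes with TPM of at least 1 in at least 1 library were tested with edgeR 4.0.16 (TMM, robust quasi-likelihood F-test, no covariate) and Benjamini-Hochberg adjustment over 20187 genes at 0.05. The study's methods used DESeq2 1.38.3, and DESeq2 1.42.0 was an alternative. Others were limma 3.58.1 (voom, and trend on log2(TPM + 1)), DESeq2 size factors, upper quartiles, library totals, no filter, filterByExpr, a replicate block, a term for replicate 1, replicates 2 to 4 only and leaving out each library. The kinase score without *Mapk15* was added after seeing the data. The term for replicate 1 and the fit of replicates 2 to 4 set apart libraries that stood out in these same data. The adjusted p values and SEs of these fits are therefore descriptive. The edgeR, DESeq2, block and voom fits were tested on simulated counts. R 4.3.3 and Python 3.11.15 were used, and positions and overlaps came from GENCODE release 39. Each p-value tests the genotype difference of a single gene against the spread between mice.

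Per-library values are given for *Mgat2*, *Mapk15*, the feedback genes and members with an unadjusted p under 0.05 or groups that do not overlap. Genes of other lists are named where edgeR, DESeq2 or the block called them, or where groups were apart at an unadjusted p under 0.05. *Fos*, *Egr1*, *Junb*, *Nr4a1*, *Clu* and the library values of *Nras*, *Araf*, *Mapk3* and *Akt1* were added after values were seen. Members and lists were chosen with earlier results of these data known.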

Additional observations from a re-analysis of the deposited data

Results flagged for a closer look

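In 6 of the 88 sets of 4 libraries (44 members, 2 genotypes) 1 library stood far from the other 3 by Dixon's test, and chance flags about 1 set in 20. All 6 were libraries numbered 1, of which 3 were low. *Rin1* was at 0.996 CPM in cKO 1 against 1.70 to 1.75 CPM in the other cKO libraries. *Araf*, a RAF kinase gene, was at 39 CPM in cKO 1 against 60.7 to 63.9 CPM. *Dusp6* was at 47.1 CPM in cKO 1 against 94.7 to 103 CPM. *Map2k2* was at 158 CPM in control 1 against 127 to 132 CPM in the other controls. *Mtor* was at 353 CPM in control 1 against 309 to 313 CPM. *Pik3r2*, a PI3K regulatory subunit gene, was at 93.1 CPM in cKO 1 against 72.3 to 75.3 CPM.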

How the results depend on the processing

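Across 19 alternatives, the 44 members gave 836 log2 fold changes, of which 818 kept their direction and side of the threshold or, in 48 values never under an unadjusted p of 0.05, changed sign near 0, and 18 passed the threshold. As no member passed it as reported, no call could be lost. Members with an adjusted p under 0.05 numbered 0 as reported, where 8 of all genes were called. Only *Mapk15* passed with upper-quartile normalization (18 of all genes called), with library totals (17) or without a filter (35). DESeq2 called 2 members (*Mapk15* and *Rin1*) among 302 genes, and replicates 2 to 4 only called 2 (*Mapk15* and *Rps6ka3*) among 855. A term for replicate 1 called 4 (*Nras*, *Rap1a*, *Rin1* and *Mapk15*) among 1522. Leaving out each library gave 0 to 1 members, with 0 to 32 genes called (1, *Mapk15*, without control 1, control 4 or cKO 1). Fits tested 20187 genes, except 29415 without a filter and 16635 with filterByExpr. The adjusted p of *Mapk15* ran from 1.4e-07 to 0.41. That of *Rin1* ran from 0.012 to 0.79, with a log2 fold change of -0.48 on log2(TPM + 1), which compresses low genes. The core median was 0.064 with upper-quartile normalization and 0.020 to 0.067 leaving out libraries. The feedback median ran from -0.06 (without control 1) to 0.21, and the feedback minus kinase difference from 0.05 (without control 1) to 0.35. Scaling moved the median of all genes to at most 0.03. The cause of these changes was not tested.

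Over all genes, edgeR called 8, DESeq2 302, replicates 2 to 4 only 855, a term for replicate 1 1522, and limma-voom, limma-trend and filterByExpr 0 each. With the replicate block, edgeR called 1464 genes (7.25% of those tested) and 4 members (*Nras*, *Rap1a*, *Rin1* and *Mapk15*), and among the other lists it called *Rps6ka6*, *Sgk3*, *Ier3*, *Zfp36* and *Sesn3*, which DESeq2 did not. The replicate numbers were not taken to pair the mice, since the deviations of same-numbered libraries correlated at 0.53, 0.14, 0.039 and 0.20 across genes, not each above 0.1, and those of replicates 2 to 4 averaged 0.13 for the same and 0.12 for different numbers.

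The intervals of the feedback genes other than *Spred1* and *Spred2* were wide at high and low counts alike. The SE of *Dusp6* was 0.36 with and 0.07 without both libraries numbered 1, and that of *Spry2* 0.30 and 0.20.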

Other observations

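Among markers of cell types in the libraries, a few genes met the rule for naming. Of 9 markers of undifferentiated spermatogonia 8 were above 0 and *Id4* alone was below, with a log2 fold change of -0.48 (SE 0.12), groups that did not overlap and an adjusted p of 0.31 by edgeR and 0.039 by DESeq2. *Piwil1*, the pachytene piRNA-binding gene, had -2.05 (SE 0.61, adjusted p = 0.44 by edgeR and 0.035 by DESeq2), and *Ybx2*, an RNA-binding gene of meiotic and later germ cells, had -1.28 (SE 0.37, adjusted p = 0.43 by edgeR), both with groups apart. *Dcn*, a marker of peritubular and stromal cells, had 0.55 (SE 0.16, adjusted p = 0.38 by edgeR) with groups apart. By the replicate block the pachytene genes *Adam2*, *Hspa2*, *Ldhc*, *Pgk2* and *Tdrd5*, the early meiotic *Spo11* and the spermatid gene *Dbil5* were also called lower, and *Pdgfra* of peritubular cells and *Dmc1* of early meiosis higher.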
